A study of Mus musculus with 7 samples.

Results

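The genes described here encode the subunits of the SWI/SNF chromatin remodelling complexes, also called BAF complexes. They were chosen by name, from a list of 31 subunits of the canonical BAF (cBAF), polybromo-associated (PBAF) and non-canonical (ncBAF) forms. The count table of the series has 34305 rows and held 30 of the 31, Bcl11b being not analysed here, and 29 of the 14808 genes that passed the filter on low counts were members. The remaining member, Actl6b, had 2 to 7 counts in each library and was not tested.

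Poly(A) RNA was sequenced from mouse haematopoietic stem and progenitor cells (HSPCs), a mixed population of blood-forming cells, kept for 7 to 9 days in medium with stem cell factor, IL-6 and IL-3, after transduction and sorting. The groups were 3 libraries of cells overexpressing MN1-∆pQ, 3 libraries of cells overexpressing MN1, and 1 library of untransduced cells. The MN1 protein works with transcription factors, and its overexpression drives myeloid leukaemia in mice; MN1-∆pQ lacks the run of glutamines. The mouse strain, the vector and promoter, the species of the construct and the day on which each library was taken are not stated in the labels, and one label of the untransduced library describes its source as transduced cells, against its title and the series design. The samples of each transduced group are called independent, with no word on separate animals, so the p-values below reflect only how far these samples spread, which may be technical.

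SWI/SNF complexes use ATP to slide or evict nucleosomes and so open DNA to transcription factors. Each complex holds a single ATPase, SMARCA4 (BRG1) or SMARCA2 (BRM), on a core that the forms share only in part. Further subunits give each form its identity. cBAF holds ARID1A or ARID1B with a DPF protein. PBAF holds ARID2, PBRM1, BRD7 and PHF10, and ncBAF holds BRD9 with BICRA or BICRAL. Many positions are filled by closely related proteins that replace each other as cells differentiate, and loss of single subunits disturbs blood formation in mice.

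Mn1 itself stood at 692, 401 and 732 CPM (counts relative to the library total, scaled by the TMM method) in the MN1-∆pQ libraries, at 313, 286 and 284 CPM in the MN1 libraries and at 34.5 CPM in the untransduced library. All 6 transduced libraries thus held more Mn1 than the untransduced one, and the MN1-∆pQ libraries the most, while a count per gene cannot tell MN1-∆pQ from MN1. Library totals ran from 38210660 to 67728658 counts. Neutrophil marker genes were called higher in MN1-∆pQ in 10 of 10 cases, with a summed level of 25080 to 34540 CPM in MN1-∆pQ, 3977 to 7460 CPM in MN1 and 36100 CPM in untransduced cells. Eosinophil markers (6 of 6), basophil markers (3 of 3), mast cell markers (4 of 7) and monocyte and macrophage markers (5 of 8) were also called higher. Called lower were 4 of 7 tested early B lymphoid markers, 3 of 8 stem and multipotent progenitor markers and 1 of 5 tested T and NK lymphoid markers. Of the tested promyelocyte (4), erythroid (7) and megakaryocyte (5) markers, none was called. The log2 fold change had the sign opposite to the calls for 1 monocyte and macrophage, 1 early B lymphoid, 3 T and NK lymphoid and 3 stem and progenitor markers. Over all genes tested, 11.1% were called higher and 6.08% lower. The 8 stem and progenitor markers, which check the labelled cell type, were detected in every library, with a sum of 596 to 1176 CPM in MN1-∆pQ, 1104 to 1453 CPM in MN1 and 1188 CPM in untransduced cells. Replicate 2 of MN1-∆pQ stood apart, with summed eosinophil markers at 231 CPM against 3331 and 3564 CPM in the other MN1-∆pQ libraries, and 12.3 to 19.2 CPM in MN1. Its promyelocyte markers summed to 7465 CPM, against 2088 and 1049 CPM in the other MN1-∆pQ libraries and 1846 to 4127 CPM in MN1. Its stem and progenitor sum of 596 CPM was the lowest of all libraries. For 21 of the 29 members this replicate was the MN1-∆pQ library nearest to the MN1 mean, as it was for 62.8% of all genes tested. In such mixed cells, fewer cells of a type and less RNA per cell cannot be told apart, and the part that the makeup of the cultures has in the results below was not tested.

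The comparison of MN1-∆pQ with MN1 asks which features of MN1-transduced cells differ when the polyglutamine stretch is missing. Mn1 itself also differed between these groups, by 1.05 on the log2 scale, higher in MN1-∆pQ. The missing stretch and the Mn1 level thus changed together, and the part that the Mn1 level has in the results below was not tested. Among the BAF genes, the ATPase gene Smarca2 and the actin gene Actb were higher in MN1-∆pQ than in MN1. The core gene Smarcc1 and the DPF genes Dpf1 and Dpf3 were lower in MN1-∆pQ than in MN1. These 5 of 29 tested members, 2 higher and 3 lower, passed at a Benjamini-Hochberg adjusted p under 0.05 in edgeR's quasi-likelihood test. Over all genes tested, 17.2% were called, 11.1% higher and 6.08% lower, so in this fit the share among BAF genes was that of the table as a whole. The median log2 fold change of the members, MN1-∆pQ over MN1, was -0.24, against 0.01 over all genes. The groups did not overlap for 19 of the 29 members, 5 higher and 14 lower, where 43.4% of all genes did not overlap, 22.1% higher and 21.3% lower. With the replicate number as a block, 3 members were called higher and 9 lower, where 30.7% of all genes were called, 17.0% higher and 13.7% lower. Without MN1-∆pQ replicate 2, 2 were higher and 13 lower, where 41.9% of all genes were called, 21.3% higher and 20.6% lower. Without any other single library, 0 to 2 were higher and 0 lower. With all 6 libraries, 15 of the 29 had an unadjusted p under 0.05 in edgeR, as did 5590 of all 14808 genes tested. Scaling by library totals shifted the median of all genes by -0.20 on the log2 scale, and all fold changes here are relative to TMM.

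**Figure D1:**
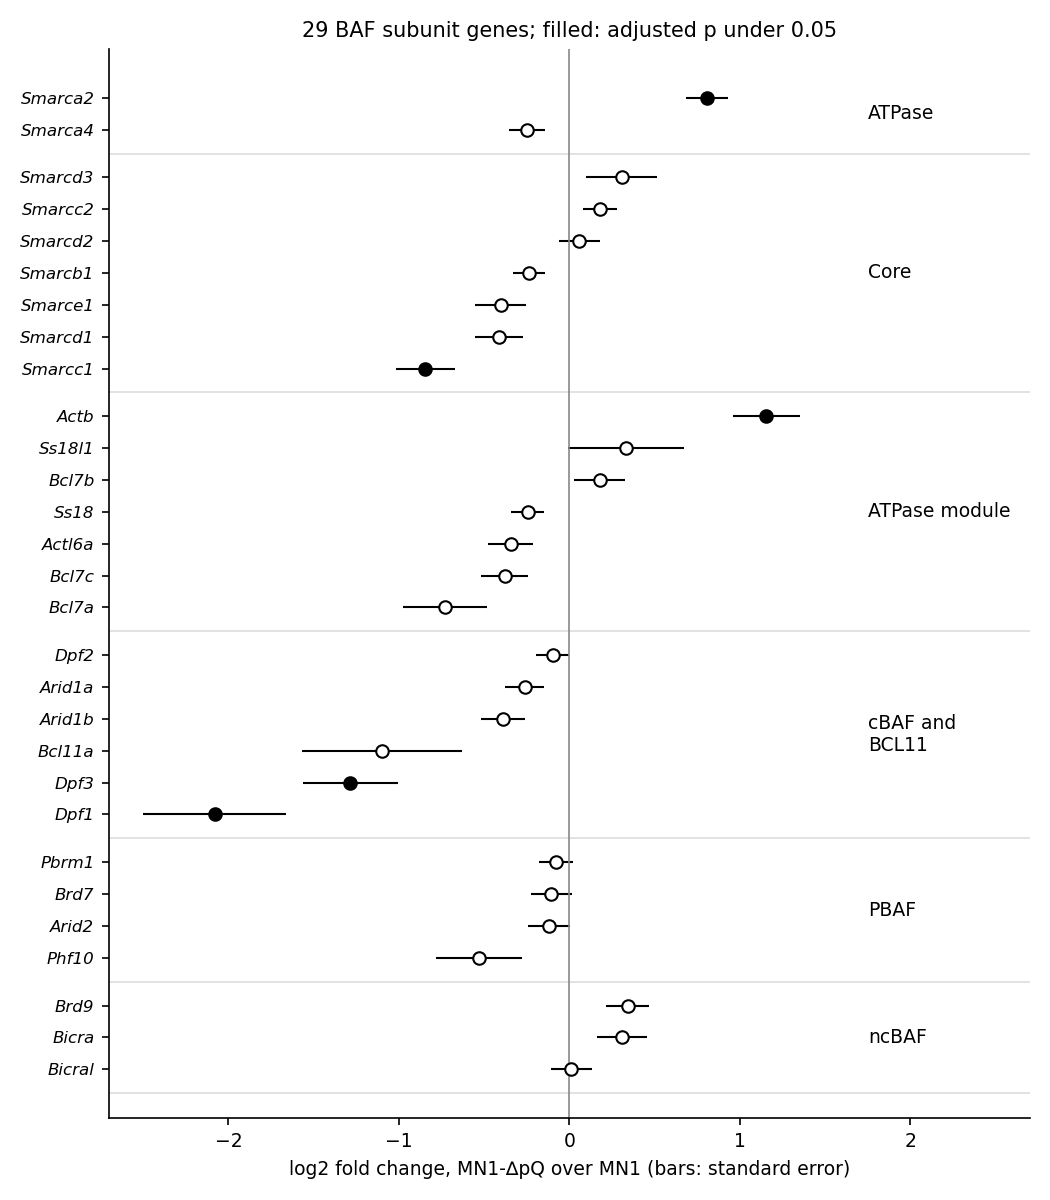
Log2 fold change of each tested BAF gene, MN1-∆pQ over MN1 (x axis), with its standard error as a bar and genes grouped by their place in the complexes. The 5 filled points passed an adjusted p of 0.05, and 19 of 29 points lie below 0.

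Of the ATPase genes, Smarca2 was called higher in MN1-∆pQ than in MN1, and Smarca4 did not pass. Smarca2 stood at 93.1, 77.2 and 79.5 CPM in MN1-∆pQ, at 51.9, 43.4 and 47.3 CPM in MN1 and at 77.7 CPM in untransduced cells. Every MN1-∆pQ library was above every MN1 library, and the untransduced level lay inside the MN1-∆pQ range. Smarca2 (chromosome 19, 26605050 to 26778322 on GRCm38, plus strand) averaged 83.2 ± 8.59 CPM in MN1-∆pQ and 47.5 ± 4.27 CPM in MN1 (SD, n = 3 each). The log2 fold change was 0.81 (SE 0.12, edgeR adjusted p = 0.0107). It was called in 5 of 6 fits that left out a single library, the exception being the fit without MN1 replicate 3 (edgeR adjusted p = 0.0574).

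Smarca4, the other ATPase and by counts the more abundant, stood at 267, 294 and 257 CPM in MN1-∆pQ, at 322, 341 and 308 CPM in MN1 and at 248 CPM in untransduced cells. The groups did not overlap, but the log2 fold change of -0.25 (SE 0.10) did not pass (edgeR adjusted p = 0.132). Per kilobase of the longest coding transcript, Smarca2 made up 27.3, 22.1 and 24.97% of the summed ATPase RNA in MN1-∆pQ, against 14.8, 12.0 and 14.2% in MN1 and 25.2% in untransduced cells. That share rests on the length used, because the annotation holds 27 coding transcripts of Smarca2, many of them short. With the median transcript length the Smarca2 share was 68.2% in MN1-∆pQ, 50.8% in MN1 and 68.8% in untransduced cells, so the order of the groups held while the level did not.

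**Figure D2:**
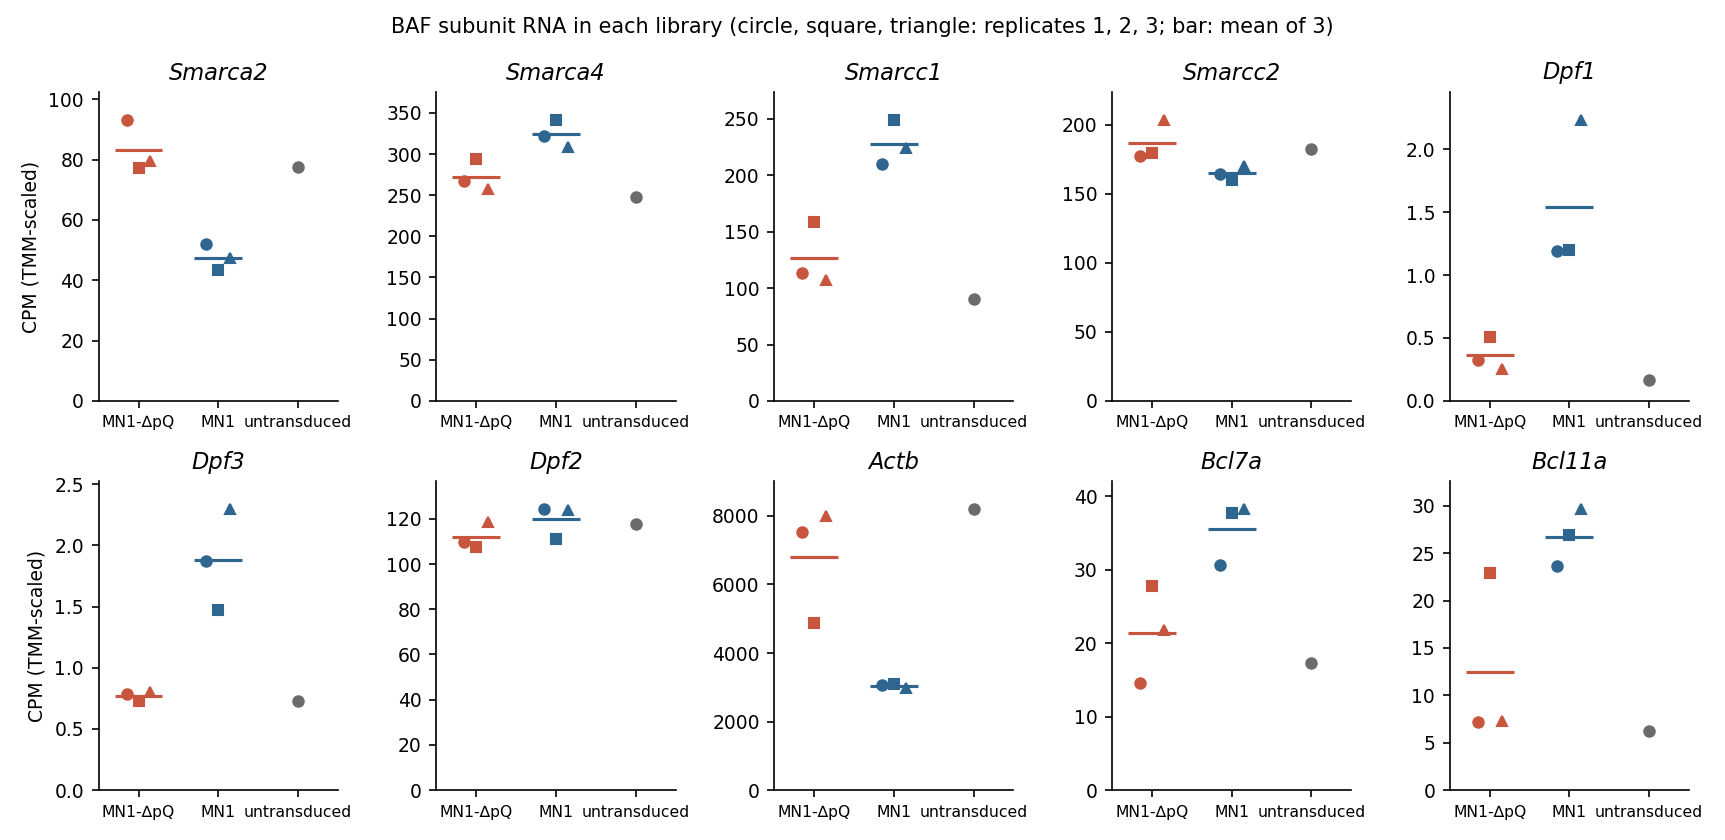
CPM of 10 BAF genes (y axis, from 0) in each MN1-∆pQ, MN1 and untransduced library, with symbols for the replicates and a bar for the mean of 3. Smarca2 and Actb are higher in MN1-∆pQ than in MN1, and Smarcc1, Dpf1 and Dpf3 are lower in MN1-∆pQ than in MN1. Replicate 2 of MN1-∆pQ reaches 22.9 CPM for Bcl11a beside 7.19 and 7.29 CPM in the other MN1-∆pQ libraries.

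Among the core subunits, 1 of 7 was called, in the lower direction, where 6.08% of all genes were called lower and 11.1% higher. The median log2 fold change of the core genes was -0.24. Smarcc1 (chromosome 9, 110117708 to 110240178, plus strand) encodes BAF155, a scaffold around which the complex assembles. It stood at 114, 159 and 108 CPM in MN1-∆pQ, at 210, 249 and 224 CPM in MN1 and at 90.3 CPM in untransduced cells. MN1-∆pQ replicate 2 was the highest of its group but still below every MN1 library. The means were 127 ± 27.8 CPM in MN1-∆pQ and 227 ± 19.8 CPM in MN1 (SD, n = 3 each), and the log2 fold change was -0.85 (SE 0.17, edgeR adjusted p = 0.0235). With single libraries left out it ran from -1.06 to -0.74, and it was called in 1 of 6 such fits, the one without MN1-∆pQ replicate 2.

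Its paralogue Smarcc2, which encodes BAF170, stood at 178, 179 and 203 CPM in MN1-∆pQ, at 164, 160 and 170 CPM in MN1 and at 182 CPM in untransduced cells. Its log2 fold change of 0.18 (SE 0.10) did not pass (edgeR adjusted p = 0.230), and with library totals alone it was -0.023. Per kilobase, Smarcc1 made up 33.6, 41.1 and 29.5% of the summed RNA of the pair in MN1-∆pQ, against 50.2, 55.1 and 51.0% in MN1 and 28.1% in untransduced cells. At these lengths Smarcc2 was the larger partner in the MN1-∆pQ and untransduced libraries, while Smarcc1 was slightly the larger in MN1. With the median transcript length Smarcc1 held 51.1% in MN1-∆pQ, 68.2% in MN1 and 43.6% in untransduced cells.

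The remaining core genes did not pass. Smarcb1 (log2 fold change -0.24, SE 0.09), Smarcd1 (-0.41, SE 0.14) and Smarce1 (-0.40, SE 0.15) lay below every MN1 library in each MN1-∆pQ library, with edgeR adjusted p between 0.0861 and 0.117. Smarcd1 was called with the block (edgeR adjusted p = 0.0401) and in DESeq2 (adjusted p = 0.0468). Smarce1 was called with the block (edgeR adjusted p = 0.0236). Smarcd2, which in mice and humans is needed for neutrophil granule formation, stood at 149, 176 and 142 CPM in MN1-∆pQ, at 152, 158 and 138 CPM in MN1 and at 150 CPM in untransduced cells. Its groups overlapped, and the log2 fold change was 0.06 (SE 0.12, edgeR adjusted p = 0.749), and the sign turned to -0.14 with library totals. Smarcd3, known from heart and muscle, was low at 3.52 to 3.90 CPM in MN1-∆pQ, 2.86 to 3.14 CPM in MN1 and 4.22 CPM in untransduced cells.

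Stretches before the start sites of the ATPase and SMARCC pairs are shown because each pair holds a called gene, Smarca2 or Smarcc1. Each runs from 250 to 111 bases before the start site in RefSeq (GRCm38.p6, plus strand), 140 bases that lie outside exons of the gene in GENCODE M21. The Smarcc1 stretch lies inside the span of the gene in GENCODE, which begins at 110117708, and so between its exons there, while the other 3 lie before the gene. Capitals mark the GC box GGGCGG on either strand, which 15.3% of 32851 windows at the same distance hold.
Smarca2, chr19:26604910-26605049: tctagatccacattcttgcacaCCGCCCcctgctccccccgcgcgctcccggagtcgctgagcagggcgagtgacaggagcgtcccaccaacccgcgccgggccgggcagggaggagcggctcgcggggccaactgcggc
Smarca4, chr9:21615919-21616058: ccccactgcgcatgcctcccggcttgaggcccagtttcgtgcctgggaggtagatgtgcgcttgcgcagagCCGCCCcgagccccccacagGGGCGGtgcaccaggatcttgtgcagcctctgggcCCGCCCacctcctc
Smarcc1, chr9:110131774-110131913: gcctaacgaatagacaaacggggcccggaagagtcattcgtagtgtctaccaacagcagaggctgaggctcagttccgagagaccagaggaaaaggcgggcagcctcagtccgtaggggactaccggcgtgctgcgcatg
Smarcc2, chr10:128458986-128459125: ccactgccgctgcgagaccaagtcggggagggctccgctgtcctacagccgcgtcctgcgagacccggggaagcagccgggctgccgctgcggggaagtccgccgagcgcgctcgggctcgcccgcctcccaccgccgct

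The stretches were rich in G and C, at 73.6% for Smarca2, 70.7% for Smarca4, 59.3% for Smarcc1 and 76.4% for Smarcc2, where the median over all windows was 50.7%. They held 16, 9, 10 and 20 CpG dinucleotides in that order of genes, against a median of 3. Smarca2 had 1 GC box and Smarca4 had 3. Searches on both strands for the CCAAT box (CCAAT, in 18.7% of windows), the E box (CACGTG, 2.64%) and the TATA box (TATAAA, 6.89%) found none of these letters in the 4 stretches. These matches describe the sequence alone, and the groups were not compared on any factor bound there.

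The subunits that sit with the ATPase include actin itself, the actin-related proteins, the BCL7 proteins and SS18. Of 7 tested genes, Actb was called higher and none was called lower, where 11.1% of all genes were called higher and 6.08% lower. The median log2 fold change of the 7 was -0.24. Actb (chromosome 5, 142903115 to 142906754, minus strand), which also builds the cytoskeleton, stood at 7516, 4875 and 8005 CPM in MN1-∆pQ, at 3074, 3110 and 2970 CPM in MN1 and at 8190 CPM in untransduced cells. MN1-∆pQ replicate 2 was the lowest of its group and above every MN1 library. The log2 fold change was 1.16 (SE 0.20, edgeR adjusted p = 0.0148), and 2 of 6 fits with single libraries left out made the call, those without MN1-∆pQ replicate 2 or 3. Reads of actin pseudogenes and of other actins can be shared with Actb, and most actin is not part of BAF, so its level is no measure of the complex.

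Bcl7a stood at 14.5, 27.8 and 21.9 CPM in MN1-∆pQ, at 30.6, 37.7 and 38.2 CPM in MN1 and at 17.3 CPM in untransduced cells. All MN1-∆pQ libraries lay below the MN1 libraries, but the log2 fold change of -0.73 (SE 0.25) did not pass (edgeR adjusted p = 0.0814). It passed with the block (edgeR adjusted p = 0.0267) and in DESeq2 (adjusted p = 0.0284). Bcl7c, with a log2 fold change of -0.38 (SE 0.14), likewise missed the threshold (edgeR adjusted p = 0.0973) and passed with the block (edgeR adjusted p = 0.0407). Bcl7b showed 28.0 to 32.4 CPM in MN1-∆pQ and 22.8 to 30.2 CPM in MN1, groups that overlapped, and 32.9 CPM in untransduced cells.

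Actl6a, the actin-related subunit of progenitor cells that is exchanged for Actl6b in neurons, stood at 82.6, 96.0 and 73.5 CPM in MN1-∆pQ, at 103, 118 and 99.7 CPM in MN1 and at 75.7 CPM in untransduced cells. Its log2 fold change of -0.34 (SE 0.13) missed the threshold (edgeR adjusted p = 0.110) and passed with the block (edgeR adjusted p = 0.0291). Actl6b was close to absent throughout, with 4 to 7 counts in MN1-∆pQ, 2 to 4 in MN1 and 2 in untransduced cells. Ss18, at 86.5 to 93.7 CPM in MN1-∆pQ, 98.8 to 114 CPM in MN1 and 87.2 CPM in untransduced cells, did not pass (log2 fold change -0.24, edgeR adjusted p = 0.120). Its neuronal relative Ss18l1 stayed at 2.77 to 5.89 CPM in the transduced libraries, with overlapping groups.

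Of the 6 tested genes of the cBAF class, 2 were called lower and none higher, where 6.08% of all genes were called lower and 11.1% higher. The median log2 fold change of the class was -0.74. The genes of the class with the most counts, Arid1a, Arid1b and Dpf2, stood at -0.26, -0.39 and -0.10, and none of them passed. Dpf1 and Dpf3 encode zinc finger subunits known from neurons and from heart and muscle. Dpf1 (chromosome 7, 29303951 to 29318243, plus strand) stood at 0.326, 0.508 and 0.250 CPM in MN1-∆pQ, at 1.19, 1.20 and 2.23 CPM in MN1 and at 0.169 CPM in untransduced cells. The highest MN1-∆pQ library was below the lowest MN1 library, yet these are few reads, from 10 to 25 counts in MN1-∆pQ, 49 to 107 in MN1 and 6 in untransduced cells. The log2 fold change was -2.08 (SE 0.42, edgeR adjusted p = 0.0233). Dpf3 (chromosome 12, 83213745 to 83487716, minus strand) stood at 0.782, 0.731 and 0.799 CPM in MN1-∆pQ, at 1.87, 1.47 and 2.29 CPM in MN1 and at 0.732 CPM in untransduced cells. Its log2 fold change was -1.28 (SE 0.28, edgeR adjusted p = 0.0277), and MN1-∆pQ and untransduced libraries were nearly level. When single libraries were left out, both calls were made without MN1-∆pQ replicate 2 and neither was made in the other 5 fits.

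Dpf2, the widely expressed member of the family, stood at 107 to 119 CPM in MN1-∆pQ, 111 to 124 CPM in MN1 and 118 CPM in untransduced cells. Its groups overlapped, and the log2 fold change was -0.10 (SE 0.10, edgeR adjusted p = 0.490). Per kilobase it made up 98.8 ± 0.188% of the summed Dpf RNA in MN1-∆pQ and 96.6 ± 0.853% in MN1 (SD, n = 3 each), and 99.1% in untransduced cells, so Dpf1 and Dpf3 together were a small part of the family in every library. The share of Dpf1 was 0.463 ± 0.188% in MN1-∆pQ and 1.77 ± 0.616% in MN1 (SD, n = 3 each).

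The DNA-binding ARID subunits were both below the MN1 libraries in each MN1-∆pQ library. Arid1a stood at 216, 270 and 246 CPM in MN1-∆pQ, at 284, 294 and 299 CPM in MN1 and at 190 CPM in untransduced cells. Arid1b stood at 88.5, 109 and 81.7 CPM in MN1-∆pQ, at 117, 126 and 123 CPM in MN1 and at 78.2 CPM in untransduced cells. Neither passed, with log2 fold changes of -0.26 (SE 0.12, edgeR adjusted p = 0.144) and -0.39 (SE 0.13, edgeR adjusted p = 0.0773). Arid1b passed with the block (edgeR adjusted p = 0.0416) and in DESeq2 (adjusted p = 0.0450).

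Bcl11a, a zinc finger repressor of fetal globin genes that is also needed for B cells and plasmacytoid dendritic cells, stood at 7.19, 22.9 and 7.29 CPM in MN1-∆pQ, at 23.6, 26.9 and 29.6 CPM in MN1 and at 6.22 CPM in untransduced cells. MN1-∆pQ replicate 2 lay just under the lowest MN1 library, and the other MN1-∆pQ libraries were near the untransduced one. The log2 fold change of -1.10 (SE 0.47) did not pass (edgeR adjusted p = 0.135). Without MN1-∆pQ replicate 2 it was -1.91 and passed (edgeR adjusted p = 0.000894). The 10 B lymphoid markers summed to between 10.49 and 13.9 CPM in MN1-∆pQ, to between 20.8 and 40.6 CPM in MN1 and to 10.53 CPM in untransduced cells, with Pax5, Rag1 and Vpreb1 among those at 0 in at least 1 library. Plasmacytoid dendritic cell markers, of which 1 of 5 tested was called lower, summed to 60.5 to 82.6 CPM in MN1-∆pQ, 143 to 177 CPM in MN1 and 104 CPM in untransduced cells. Their part in the Bcl11a values was not tested.

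None of the 4 PBAF genes passed in edgeR, none had an unadjusted p under 0.05, and none passed with the block or in DESeq2. Their median log2 fold change was -0.11. Arid2, the PBAF counterpart of the ARID1 subunits, stood at 94.5, 119 and 96.6 CPM in MN1-∆pQ, at 106, 119 and 112 CPM in MN1 and at 77.3 CPM in untransduced cells. Pbrm1, whose bromodomains bind acetylated histones, stood at 127, 150 and 138 CPM in MN1-∆pQ, at 146, 146 and 147 CPM in MN1 and at 110 CPM in untransduced cells. The groups overlapped for both. Phf10 stood at 73.3, 119 and 60.2 CPM in MN1-∆pQ, at 132, 124 and 108 CPM in MN1 and at 66.0 CPM in untransduced cells. MN1-∆pQ replicate 2 fell inside the MN1 range, and the log2 fold change was -0.53 (SE 0.25, edgeR adjusted p = 0.168). Without that library it was -0.88 and passed (edgeR adjusted p = 0.00432). Brd7 differed by -0.11 (SE 0.12) on the log2 scale and did not pass (edgeR adjusted p = 0.539).

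None of the 3 ncBAF genes passed in edgeR or DESeq2, and 1 had an unadjusted p under 0.05, with a median log2 fold change of 0.31. That gene was Brd9, the bromodomain subunit that defines ncBAF, at 54.3, 48.8 and 44.6 CPM in MN1-∆pQ, 39.2, 42.2 and 35.3 CPM in MN1 and 54.7 CPM in untransduced cells. Every MN1-∆pQ library was above every MN1 library, and the log2 fold change was 0.34 (SE 0.13, edgeR adjusted p = 0.104, and 0.0499 with the block). Bicra stood at 38.2, 31.6 and 36.3 CPM in MN1-∆pQ, at 27.8, 25.4 and 32.5 CPM in MN1 and at 40.3 CPM in untransduced cells, and did not pass (log2 fold change 0.31, SE 0.15, edgeR adjusted p = 0.169). Bicral, the alternative scaffold, was level at 36.4 to 39.5 CPM in MN1-∆pQ, 34.0 to 41.0 CPM in MN1 and 37.6 CPM in untransduced cells.

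Ratios of related subunits within a library do not depend on scaling, and 16 of 17 chosen pairs could be formed. The counts of Smarca4 over Smarca2 gave log2 ratios of 1.52, 1.93 and 1.69 in MN1-∆pQ, 2.63, 2.98 and 2.71 in MN1 and 1.67 in untransduced cells. The means differed by -1.06, MN1-∆pQ minus MN1. For Smarcc1 over Smarcc2 the log2 ratios were -0.64, -0.18 and -0.92 in MN1-∆pQ, 0.35, 0.64 and 0.39 in MN1 and -1.01 in untransduced cells, a difference of -1.04 between the group means. In both pairs the MN1-∆pQ libraries were clear of the MN1 libraries, and replicate 2 was the MN1-∆pQ library nearest to them.

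Dpf1 over Dpf2 differed by -1.96 and Dpf3 over Dpf2 by -1.16 on the log2 scale, MN1-∆pQ minus MN1, the numerators being low counts. Bcl7a over Bcl7b differed by -0.96 and Bcl7c over Bcl7b by -0.57. Smarcd3 over Smarcd1 differed by 0.72, Brd9 over Brd7 by 0.45 and Bicral over Bicra by -0.30. Arid1b over Arid1a differed little, with log2 ratios of -1.28, -1.31 and -1.59 in MN1-∆pQ, -1.28, -1.23 and -1.28 in MN1 and -1.28 in untransduced cells, groups that met at their edges. Arid2 over Arid1a differed by 0.14, with overlapping groups. Over the 16 pairs the groups did not overlap for 13. Of these, 4 were higher and 9 lower, a split that depends on which gene of each pair was the numerator. Arid1b over Arid1a is among the 13, with its highest MN1-∆pQ ratio at -1.284 and its lowest MN1 ratio at -1.281. The groups did not overlap for 43.4% of single genes, but that share is of levels, and none was computed for ratios. Several pairs share a gene, and Actl6b over Actl6a, among the higher ones, rests on 2 to 7 counts of Actl6b. Exact two-sided permutation tests of 3 against 3 libraries cannot go below p = 0.10, which these 13 pairs reached, with an adjusted p of 0.123 over the 16 pairs. The pairs could therefore not pass a threshold of 0.05 in this design. The untransduced ratio lay within the MN1-∆pQ range for 8 of the 16 pairs and within the MN1 range for 0.

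**Figure D3:**
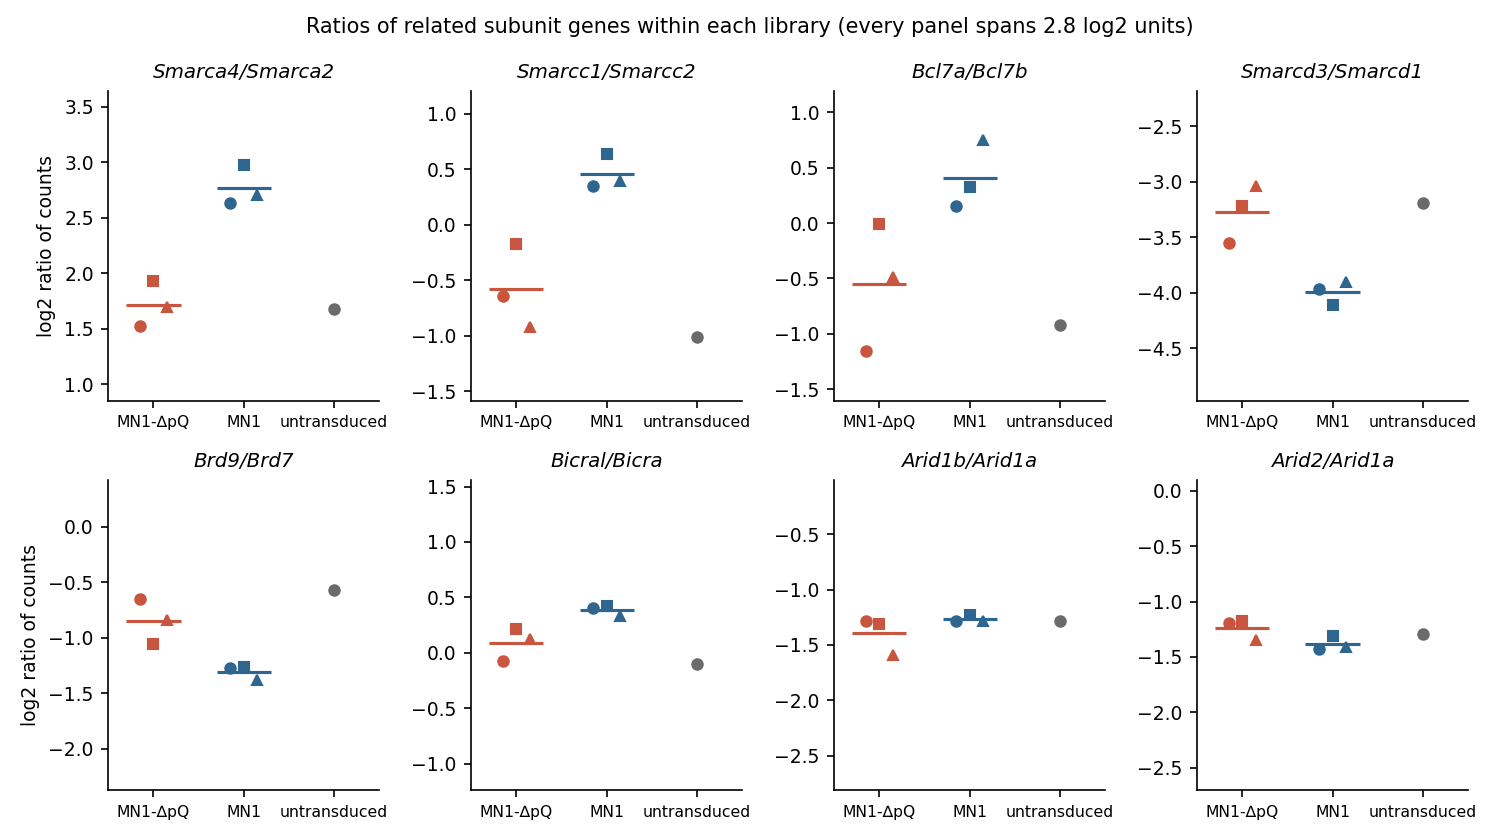
Log2 ratio of the counts of 2 related BAF genes (y axis) in each MN1-∆pQ, MN1 and untransduced library, with a bar for the mean of 3 and the same span in every panel. Smarca4/Smarca2 and Smarcc1/Smarcc2 are lower in MN1-∆pQ, with differences of -1.06 and -1.04 from MN1, while the Arid2/Arid1a groups overlap.

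The scaffold genes that set the complexes apart were summed per kilobase of the longest coding transcript, Arid1a and Arid1b for cBAF, Arid2 for PBAF, and Bicra and Bicral for ncBAF. The cBAF scaffolds held 59.7, 63.1 and 61.4% of this sum in MN1-∆pQ, 66.5, 66.8 and 65.6% in MN1 and 58.3% in untransduced cells. The groups did not overlap, and the exact permutation p of 0.10 is the smallest possible. The ncBAF scaffolds held 20.9, 16.1 and 19.9% in MN1-∆pQ, 15.1, 13.4 and 16.2% in MN1 and 24.1% in untransduced cells, with groups that overlapped at their edges (exact permutation p = 0.20). The PBAF scaffold held 19.6 ± 1.05% in MN1-∆pQ and 18.8 ± 0.884% in MN1 (SD, n = 3 each, exact permutation p = 0.40). RNA shares say nothing about the amounts of assembled complexes.

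Levels of different genes were set side by side per kilobase of the longest coding transcript. In MN1-∆pQ, after Actb, the highest means were 56.6 ± 6.56 CPM per kilobase for Smarcd2, 50.5 ± 18.5 for Phf10 and 47.2 ± 7.36 for Smarce1, and in MN1 they were 73.0 ± 7.39 for Phf10, 62.5 ± 7.41 for Smarce1 and 54.4 ± 3.69 for Smarcd2 (SD, n = 3 each). The 3 genes were within their spread of each other in MN1-∆pQ, while in MN1 Phf10 was above Smarcd2 by more than their SDs together. Other members at similar or lower levels, not as a ranking, were Actl6a at 41.8 ± 5.63 CPM per kilobase in MN1-∆pQ and 53.1 ± 4.80 in MN1, Smarcc2 at 40.9 ± 3.16 in MN1-∆pQ and 36.2 ± 1.12 in MN1, Smarca4 at 42.8 ± 2.95 CPM per kilobase in MN1-∆pQ and 50.8 ± 2.59 in MN1, and Smarcb1 at 40.1 ± 1.67 in MN1-∆pQ and 47.2 ± 2.13 in MN1 (SD, n = 3 each). The ARID, PBRM1 and BICRA scaffolds were lower, between 5.71 CPM per kilobase for Bicral and 29.8 for Arid1a in MN1-∆pQ, and between 4.78 for Bicra and 35.7 for Arid1a in MN1. Dpf1, Dpf3 and Actl6b lay below 1 in every library. This order depends on the length used, since the median transcript length moved the MN1 level of 22 of 30 members by more than 1 SD.

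The untransduced library was set beside each transduced group without a test, since it stands alone, and both comparisons below share it. In MN1-∆pQ, 0 of 29 members differed from it by more than 2-fold, where 4.80% of all genes did, 1.42% higher and 3.38% lower. Without MN1-∆pQ replicate 1 it was 1 member and without MN1-∆pQ replicate 3 it was 2. In MN1, 6 members did, Dpf1, Bcl11a, Smarcc1, Dpf3 and Bcl7a being higher and Actb lower, where 25.8% of all genes did, 10.1% higher and 15.7% lower. The median absolute log2 difference of the members was 0.14 for MN1-∆pQ and 0.49 for MN1, against 0.20 and 0.53 over all genes. The untransduced value lay outside the MN1-∆pQ range for 13 of 29 members, where 39.9% of all genes did, and outside the MN1 range for 25, where 81.2% of all genes did.

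Against the untransduced library, Smarcc1 differed by 0.47 in MN1-∆pQ and 1.33 in MN1 on the log2 scale. Bcl11a differed by 0.77 in MN1-∆pQ and 2.09 in MN1, and Bcl7a by 0.25 in MN1-∆pQ and 1.02 in MN1. Actb differed by -0.30 in MN1-∆pQ and -1.43 in MN1, and Smarca2 by 0.09 in MN1-∆pQ and -0.71 in MN1. Some members lay above the untransduced level in all 6 transduced libraries. Among them were Arid2 (0.41 in MN1-∆pQ and 0.54 in MN1), Pbrm1 (0.32 and 0.41 in the same order) and Arid1a (0.35 and 0.62). Smarcd3, Actb, Bcl7b, Brd9 and Bicra lay below the untransduced level in all 6. Every MN1-∆pQ library was above that level for 8 of 29 members and below it for 5. Over all 14808 genes tested this held for 2930 and 2985. Dpf1 differed by 0.88 in MN1-∆pQ and 2.83 in MN1, on 6 counts in the untransduced library.

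**Figure D4:**
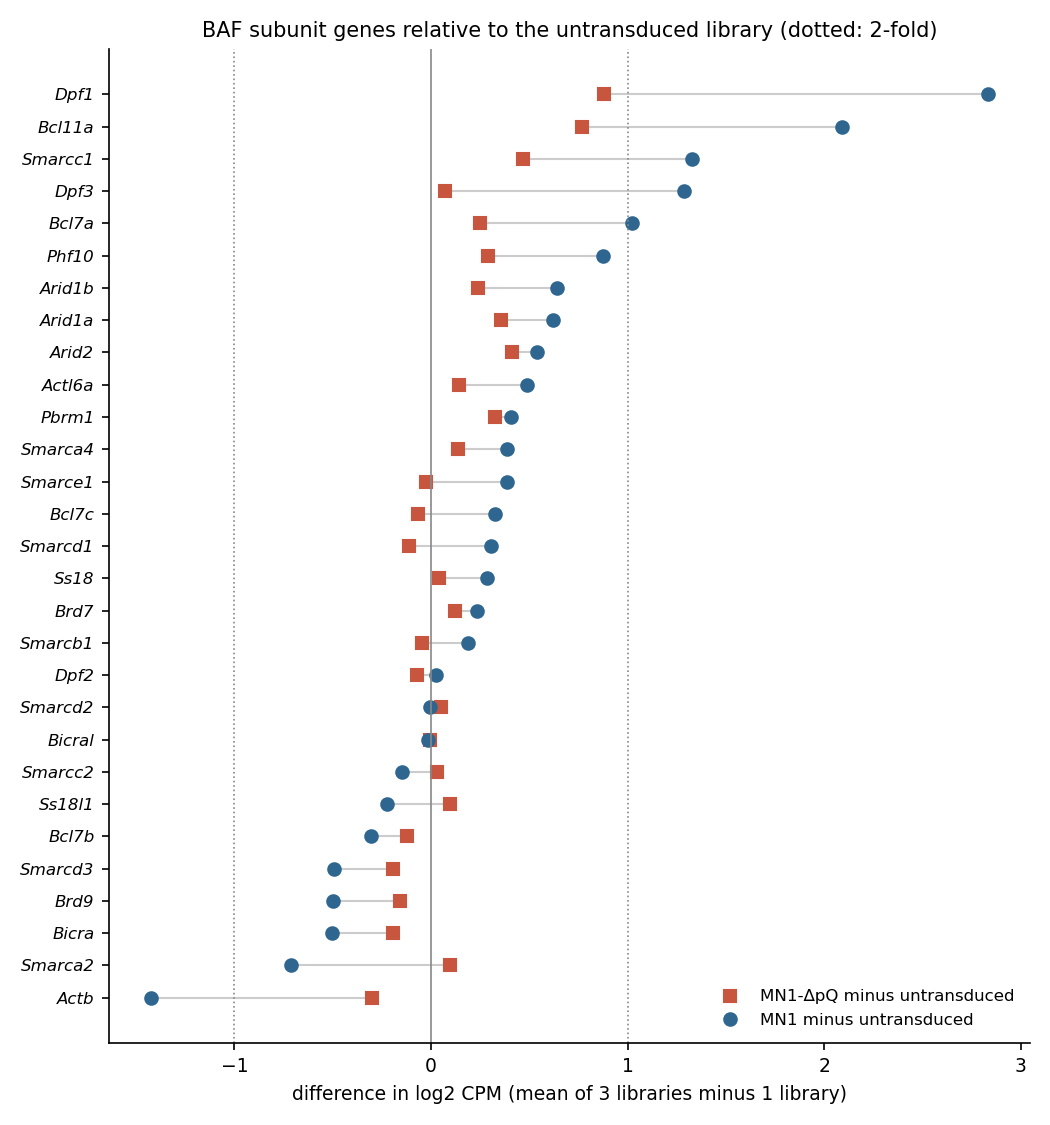
Difference in log2 CPM from the single untransduced library (x axis) for 29 BAF genes, as squares for the mean of the MN1-∆pQ libraries and circles for the mean of the MN1 libraries. The MN1-∆pQ squares stay within 2-fold (dotted lines), while the MN1 circles of 6 genes lie beyond, from Dpf1 at 2.83 to Actb at -1.43.

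Other ATP-dependent remodellers were tested in the same fit. Of 54 tested genes of the ISWI, CHD and NuRD, and INO80, SRCAP and EP400 families, 2 were called higher and 2 lower in MN1-∆pQ (edgeR), or 7.41% against 17.2% of all genes, with a median log2 fold change of -0.13. With the block 15 were called, 2 higher and 13 lower, where 30.7% of all genes were, 17.0% higher and 13.7% lower. Without MN1-∆pQ replicate 2 the share was 37.0%, with 4 genes higher and 16 lower. Of all genes 41.9% were called in that fit, 21.3% higher and 20.6% lower. Baz2b, a bromodomain gene of the ISWI family, rose by a log2 fold change of 0.89 (SE 0.15, edgeR adjusted p = 0.0130). In the NuRD family Mta1, a scaffold, was lower than in MN1, at -1.05 (SE 0.21, edgeR adjusted p = 0.0223). Mbd2, which binds methylated DNA, was higher than in MN1, at 0.53 (SE 0.11, edgeR adjusted p = 0.0274). Ruvbl1, a helicase of the INO80 family, was lower than in MN1, at -0.66 (SE 0.13, edgeR adjusted p = 0.0215). With single libraries left out, Mta1, Mbd2 and Ruvbl1 were each called in 1 of 6 fits, the one without MN1-∆pQ replicate 2, and Baz2b in 2. Mbd2 lost its call with library totals (edgeR adjusted p = 0.0601).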

How the data were processed

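Estimated counts for each gene symbol in 7 libraries, without normalisation, are what the authors deposited. The submitters' processing notes name kallisto, DESeq2 and the GRCm38 build, with no transcript index or strand setting. Columns were matched to samples by the labels. Counts were rounded to whole numbers. Genes were filtered with filterByExpr on the transduced groups, scaled by TMM and tested with edgeR 4.0.16 in R 4.3.3 (quasi-likelihood, group as the only term, Benjamini-Hochberg over 14808 genes, threshold 0.05), 3 MN1-∆pQ against 3 MN1 libraries. The SE is the fold change over the root of its F statistic. Differences from the untransduced library used log2 CPM with a prior count of 2, and ratios a pseudocount of 0.5. Lengths and positions came from GENCODE M21, matched by symbol, and upstream sequences from RefSeq.

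The members, lists, pairs and tests were chosen with earlier results of these data known. Named in full were members past the threshold, their paralogues, both ATPases, Actb and members past 2-fold from the untransduced library with at least 100 counts; from each other family up to 4 passing genes were named. Replicates differed beyond sampling noise (chi-square per gene of 43.3 to 352). Over genes, same-numbered libraries deviated together from their group means (r = 0.368, 0.259 and 0.321), and others had r below 0, so numbers were taken, from the data alone, to pair the libraries, and a block fit was run. In simulated counts (14656 genes, MN1-∆pQ against MN1) 100 genes were given a log2 change of 1, of which 29.0% were recovered. Another 100 were given a log2 change of 2, of which 84.0% were recovered, and false calls were 5.04%. With the block the shares were 16.0%, 77.0% and 6.06% in that order. The simulated counts held no effect shared by replicate number, so they cannot show what the block does in these data. Recovery with as many changed genes as the 2544 called in the data was not tested. The alternatives were other scalings, no filter, DESeq2 1.42.0, all 7 libraries in the fit, the block and left-out libraries.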

Additional observations from a re-analysis of the deposited data

How the results depend on the processing

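The 5 BAF calls were also made, 2 higher and 3 lower, with RLE size factors, with no filter on low counts and with all 7 libraries in the fit. DESeq2 called 6 members lower, library totals 11, the replicate block 9 and the fit without the pair numbered 2 10, each with 2 higher, or 3 with the block. Over all genes, DESeq2 called 1907 lower, library totals 1847, the block 2523 higher and 2022 lower, and the fit without the pair 2617 higher and 2630 lower, against 1643 and 901 in the reported fit. Library totals moved the share of higher calls to 38.2%, against 64.6%. Of the other remodellers, DESeq2 called 7 lower, library totals 1 higher and 11 lower, the block 13 lower and the fit without the pair 16 lower. Leaving out single libraries gave 0 to 2 members higher and 0 to 13 lower, 378 to 3248 genes higher and 95 to 3146 lower, and 0 to 4 other remodellers higher and 0 to 16 lower. The highest counts came without MN1-∆pQ replicate 2 and the lowest counts of members without MN1 replicate 3. With single libraries left out, 0 to 2 members in MN1-∆pQ and 5 to 6 in MN1 were past 2-fold from the untransduced library, and with library totals 0 in MN1-∆pQ and 7 in MN1. Signs turned for genes that did not pass: with library totals Smarcc2 was at -0.0232, Smarcd2 at -0.14, Bcl7b at -0.0255 and Bicral at -0.19. Without the pair Smarcd2 was at -0.041 and Bicral at -0.077. Bicral was at -0.0018 with RLE, -0.0016 with no filter and -0.0022 in DESeq2. With single libraries left out Smarcd2 ran from -0.062 to 0.12 and Bicral from -0.057 to 0.078. The causes were not tested. Paired differences gave the same mean ratios by construction, and the block changed no member's call beside those given with their genes. Another transcript length moved the MN1 level per kilobase of 22 of 30 members by more than 1 SD. At 6 to 107 counts per library, Dpf1 is limited by depth.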
